A study of Caenorhabditis elegans with 2 samples.

Results

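The genes described here encode the aspartyl proteases of the cathepsin D type (asp genes) and the cysteine cathepsins of the B type (cpr), L type (cpl) and Z type (cpz) of Caenorhabditis elegans. With earlier results of these data known, they were chosen by a rule on names. It takes every gene of the deposited all-genes table whose symbol is asp, cpr, cpl or cpz followed by a number. This gave 28 of 46233 genes, of which 19 are asp genes and 9 are cysteine cathepsin genes. Total RNA of whole L4 larvae kept at 25 °C was sequenced in 2 libraries. The first came from the wild type strain N2. The second came from VC2324, which carries a mutation in flp-6, the gene of one set of FMRFamide-like neuropeptides. The labels do not describe the mutation further.

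Cathepsins are peptidases made as inactive precursors that mature in the acid environment of the lysosome, where they break down proteins delivered by endocytosis and autophagy. Aspartyl cathepsins cut with a pair of aspartates and cysteine cathepsins with a cysteine and a histidine. In the worm many of these genes are active in the intestine, whose cells both digest bacterial food and hold large numbers of lysosome-related granules, and some of the enzymes are secreted.

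The unit of the table is FPKM, the fragments of each gene corrected for the length of its transcript and the size of the library, so that levels of different genes can be compared per length. There was 1 library per genotype. No value therefore has an error between cultures or animals, no test was possible, and every difference below is one between 2 libraries. Sequencing depth is unknown. All FPKM values of the mutant library added up to 989473 and those of N2 to 1414572, so that the mutant sum was 69.9% of the N2 sum. The targeted gene flp-6 was at 4.40 FPKM in the mutant library and 57.95 FPKM in N2. Differences are given as log2((mutant FPKM + 1)/(N2 FPKM + 1)), and a gene was counted as measured if its mean over both libraries was at least 1 FPKM.

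Of the 28 protease genes, 19 were measured, 12 of them asp genes and 7 cysteine cathepsin genes. Of these, 4 passed 2-fold upward in the mutant library (asp-17, asp-12, cpr-3 and asp-10). A further 4 passed 2-fold downward (asp-14, cpr-1, asp-8 and asp-4), 10 lay within 2-fold, and asp-1 was listed at 0 in the mutant library, an entry that may not be a measurement. Leaving asp-1 out, 4 of 18 protease genes were higher and 4 lower (22.2% each), against 9.48% and 10.4% of the 13116 genes above 0.0001 FPKM in both libraries. With genes at 0.0001 kept, as 4 of 19 and 5 of 19, the shares were 21.1% and 26.3%, against 10.5% and 11.3% of all 13436 measured genes. With so few genes each one moves these shares by several percent. Among the 4 higher genes, asp-17 was measured only through its mutant value. At 4-fold, asp-17, asp-12 and cpr-3 were higher and no member above 0.0001 in both libraries was lower, so that asp-1 is the only entry counted there. Of all measured genes 1.62% were 4-fold higher and 1.19% lower, genes at 0.0001 included. In whole larvae, fewer cells of a type and less RNA per cell cannot be told apart.

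**Figure D1:**
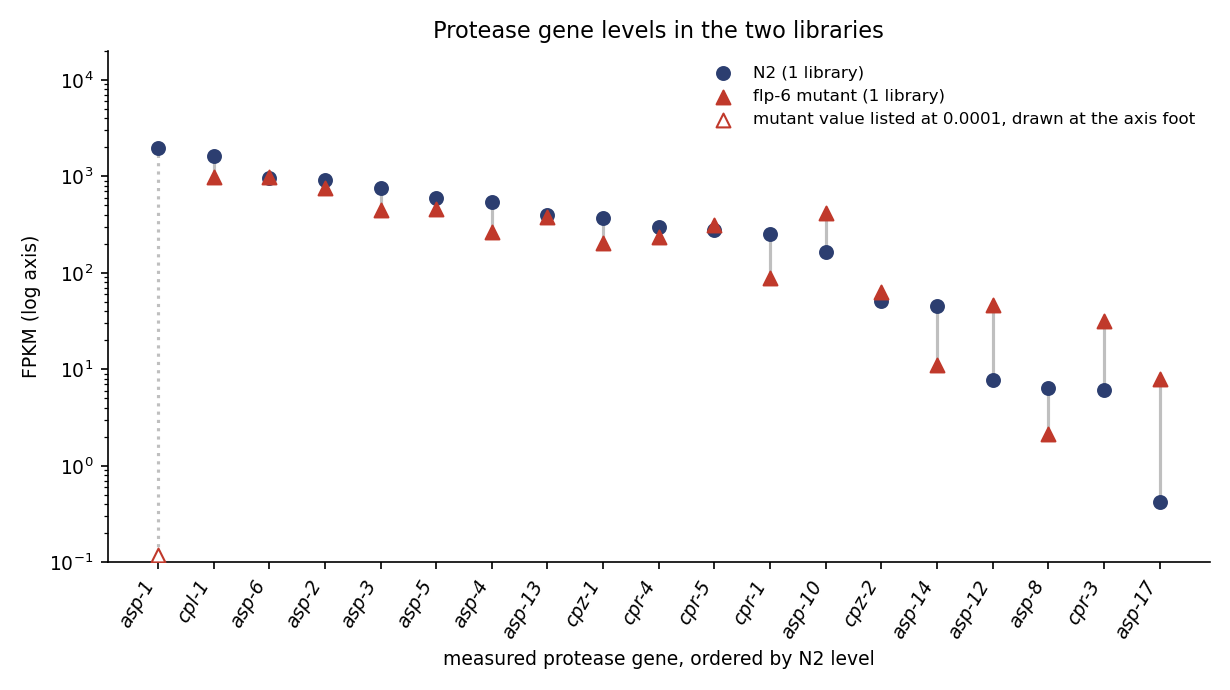
FPKM of the 19 measured protease genes in the N2 library (circles) and the flp-6 mutant library (triangles), on a log axis, ordered by the N2 level. Long grey lines mark asp-17, asp-12, cpr-3 and asp-10, higher in the mutant library, and asp-14, cpr-1 and asp-8, lower in it. The open triangle is asp-1, listed at 0.0001 in the mutant library and drawn at the foot of the axis.

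The proteases as a class were abundant. In N2, 13 of 28 members (46.4%) had at least 100 FPKM, compared with 9.79% of 20541 protein-coding genes, and in the mutant library 11 did (39.3%, compared with 7.22%). The most abundant in N2 was asp-1, an aspartyl protease known from the intestine, at 1961 FPKM. It was followed by cpl-1, the cathepsin L that processes yolk and is needed for embryonic development, at 1627 FPKM. In the mutant library asp-6 and cpl-1 had the highest listed values, at 994 and 988 FPKM, where they stood at ranks 155 and 156 of the protein-coding genes. The members with at least 100 FPKM in N2 only were cpr-1 and asp-1. The entry of asp-1 in the mutant library may not be a measurement, so that its place there is unknown. Levels ranged in N2 from asp-1 down to 0.426 FPKM for asp-17 among the measured genes.

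As deposited and on the log2(FPKM + 1) scale, the largest difference upward among the proteases was that of asp-17. This gene (WBGene00012683; chromosome V, reverse strand, 19035723 to 19037322, build WBcel235) has been linked to the response of the worm to cold followed by warming, where the transcription factor ZIP-10 activates it. Its level was 7.94 FPKM in the mutant library and 0.426 FPKM in N2. The mutant value was thus 18.6 times the N2 value as a ratio of FPKM, but the N2 level is low and the difference on the log2(FPKM + 1) scale was 2.65. Of the 13436 measured genes, 108 had a difference this high or higher, asp-17 included.

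The asp-12 gene (WBGene00017678; chromosome V, forward strand, 8269210 to 8272056) was at 46.5 FPKM in the mutant library and 7.71 FPKM in N2, a difference of 2.45. In the measured set 123 genes reached it. The order of asp-17 and asp-12 depends on the scale: with both libraries rescaled to the same FPKM sum asp-12 was at 2.90 and asp-17 at 2.79. With 5 FPKM added in place of 1, asp-17 was at 1.25, below asp-12 at 2.02, cpr-3 at 1.73 and asp-10 at 1.33. The cathepsin B gene cpr-3 (WBGene00000783; chromosome V, reverse strand, 15296834 to 15298700) was at 31.7 FPKM in the mutant library and 6.11 FPKM in N2, a difference of 2.20. These 3 genes were all under 10 FPKM in N2.

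The fourth higher gene, asp-10, was abundant in both libraries. The Ensembl annotation now names it hrg-7 (WBGene00007605; chromosome V, forward strand, 12742041 to 12744171). HRG-7 is a secreted aspartyl protease homologue that carries a signal about haem supply from the intestine to other tissues. Its level was 421 FPKM in the mutant library and 165 FPKM in N2, a difference of 1.35. By rank among protein-coding genes it moved from 1250 in N2 to 332 in the mutant library. The last 7 bases of the gene overlap the end of C15C8.7 on the other strand, and the deposited table gives both genes one locus field. C15C8.7 differed in the other direction, with 123 FPKM in the mutant library and 295 FPKM in N2. No source used here says whether counting was strand-specific, so that reads from the overlap cannot be assigned to either gene. The same holds for asp-2 (74 bases shared with inx-10), cpz-2 (59 with gcy-34) and asp-4 (33 with R12H7.4). Each of them shares its locus field with that gene of the other strand. The highest of these neighbours was inx-10, at 5.72 FPKM in the mutant library and 4.14 FPKM in N2.

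**Figure D2:**
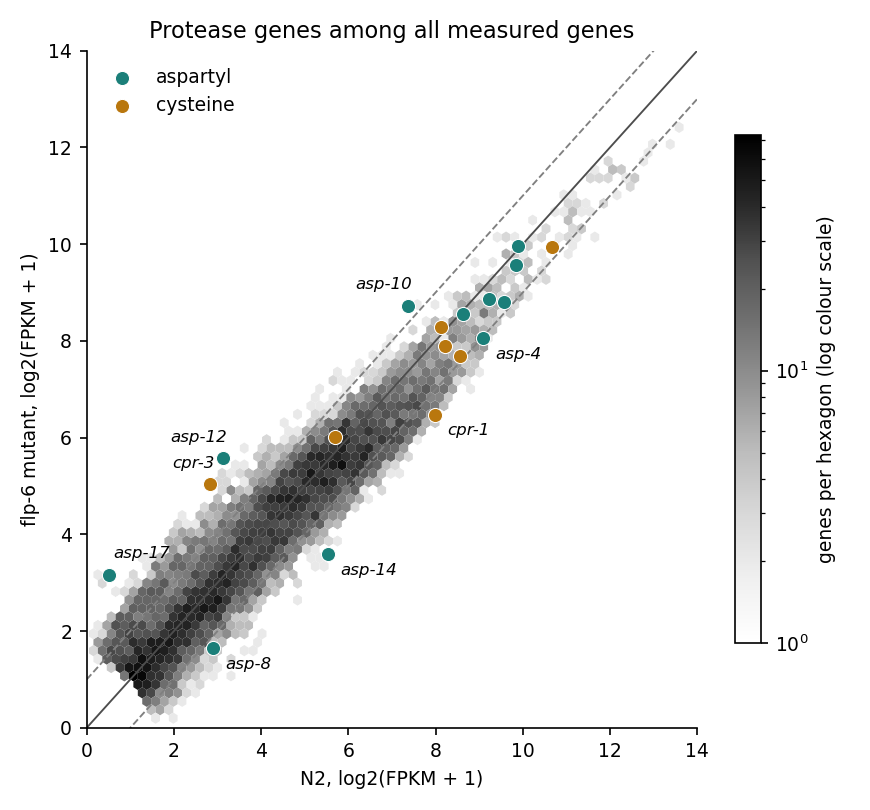
Level in the flp-6 mutant library against level in N2, as log2(FPKM + 1), for genes above 0.0001 FPKM in both libraries: hexagons show the density of all 13116 genes and coloured points the 18 protease genes, with the solid line at equality and dashed lines at 2-fold. The genes asp-17, asp-12, cpr-3 and asp-10 lie above the upper line and asp-14, cpr-1, asp-8 and asp-4 on or below the lower one.

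On the other side, asp-14 had the lowest difference among genes above 0 in both libraries. It is WBGene00019619, on the reverse strand of chromosome X from 6444185 to 6446664. Its level was 11.1 FPKM in the mutant library and 45.5 FPKM in N2, a difference of -1.95. In the measured set 176 genes were as low or lower. The gene shares a locus field of the deposited table with fah-1, an enzyme of tyrosine breakdown, which lies next to it on the same strand and was at 93.9 FPKM in the mutant library and 155 FPKM in N2.

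The gut cysteine protease gene cpr-1 (WBGene00000781; chromosome V, forward strand, 11975551 to 11976756) was at 88.1 FPKM in the mutant library and 253 FPKM in N2, a difference of -1.51. The mutant value was 34.8% of the N2 value. At a much lower level, asp-8 had 2.13 FPKM in the mutant library and 6.45 FPKM in N2, a difference of -1.25.

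The 2 aspartyl proteases known to carry out necrotic death of neurons in the worm, asp-3 and asp-4, were both lower in the mutant library, and only asp-4 passed 2-fold. The level of asp-4, the closest relative of vertebrate cathepsin D among them, was 266 FPKM in the mutant library and 541 FPKM in N2, a difference of -1.02. For asp-3 the values were 443 and 759 FPKM, a difference of -0.77. Thus asp-4 lay just past the 2-fold line. On its other side the nearest gene was the cathepsin Z gene cpz-1, which acts in moulting and body shape, with 205 FPKM in the mutant library and 374 FPKM in N2, a difference of -0.87.

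The value of asp-1 in the mutant library could not be taken at face value. The gene (WBGene00000214; chromosome V, reverse strand, 19049562 to 19050752) was listed at 0.0001 FPKM there, the entry that stands in place of 0, against 1961 FPKM in N2. In the authors' deposited table the p-value of this pair was 1. Of 208 genes with at least 1000 FPKM in N2, asp-1 and the ribosomal protein gene rpl-35 were the 2 listed at 0.0001 in the mutant library, and the authors' deposited table shows the same p-value of 1 for rpl-35. Another 2 ribosomal protein genes, rpl-6 and rps-3, which every cell uses, were listed at 0.0001 in both libraries. For asp-1 no fold is therefore given, and each count of lower members is given without it or names it.

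The same caution applies to cpr-6, a cathepsin B gene, which was listed at 0.0001 FPKM in both libraries. The remaining 8 members that were not measured were asp-7, asp-9, asp-11, asp-15, asp-16, asp-18, asp-19 and cpr-2. None of the 9 exceeded 0.0734 FPKM in the mutant library or 0.399 FPKM in N2, and 4 (cpr-6, asp-16, asp-18 and asp-19) were listed at 0.0001 in both. No difference is read from these values.

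Among the abundant genes within 2-fold, asp-6 was at 994 FPKM in the mutant library and 951 FPKM in N2, and asp-13 at 377 and 393 FPKM. Both pairs were nearly equal. The level of asp-2 was 761 FPKM in the mutant library and 918 FPKM in N2, and that of asp-5 was 463 and 602 FPKM. For cpl-1 the values were 988 and 1627 FPKM, a difference of -0.72, so that the mutant library held less of the L type cathepsin but by under 2-fold. With both libraries rescaled to the same FPKM sum, asp-2, asp-5 and asp-13 came out slightly higher in the mutant library, as did cpr-4, described next.

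The cathepsin B gene cpr-4 encodes a secreted protease that in worms mediates the effects of irradiated tissue on unexposed tissue. Its level was 238 FPKM in the mutant library and 297 FPKM in N2. Of the other cysteine cathepsins, cpr-5 was at 312 FPKM in the mutant library and 279 FPKM in N2, and the second cathepsin Z gene, cpz-2, at 64.0 and 50.8 FPKM. These 3 genes lay within 2-fold, from -0.32 to 0.33 on the log2 scale. The current annotation has 2 more genes with cpr names, which the deposited table lists by sequence name and the rule therefore left out. Of these cpr-9 (F57F5.1) was at 566 FPKM in the mutant library and 1115 FPKM in N2, a difference of -0.98, and cpr-8 (W07B8.1) at 16.0 and 12.6 FPKM.

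**Figure D3:**
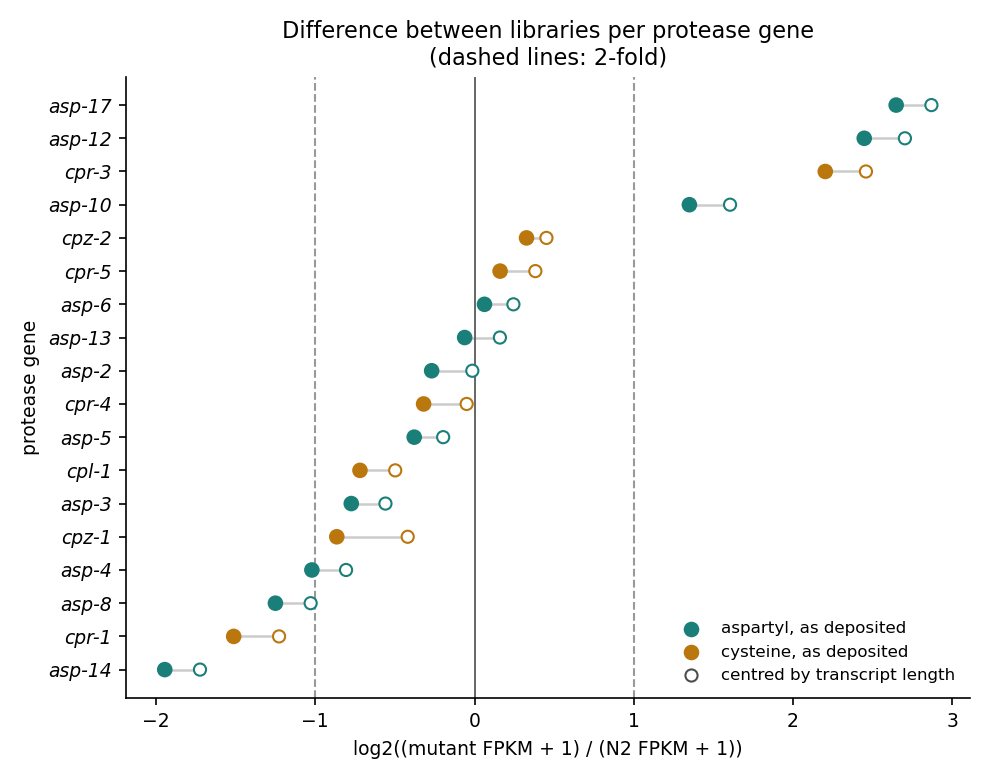
Log2 difference of the mutant library from N2 for the 18 protease genes above 0.0001 FPKM in both libraries; filled points are values as deposited, open points values after subtraction of the median of genes of like transcript length, and dashed lines mark 2-fold. The 4 highest genes, asp-17, asp-12, cpr-3 and asp-10, stand apart from the rest in both, while asp-4 is past the lower line as deposited and inside it after centring.

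Taken by class, the median difference was -0.32 for the 12 measured asp genes and -0.32 for the 7 cysteine cathepsins, compared with -0.10 for all measured genes. Without asp-1 the median of the asp genes was -0.27. Both class medians turned positive, to 0.19, when the libraries were rescaled to the same FPKM sum, which moved the median of all genes by 0.44. At that scale the 4 higher members were the same (19.7% of all genes were higher), and of the lower ones above 0.0001 in both libraries asp-14 was left (2.95%). The standard deviation of the difference was 1.34 over 18 protease genes, compared with 0.78 over the 13116 genes above 0.0001 in both libraries. This spread came mostly from members low in N2. Of the 12 members with at least 100 FPKM in N2, 9 lay within 2-fold, against 70.1% of all such genes. Of the 6 members under 100 FPKM in N2, 1 lay within 2-fold, against 82.0% of all such genes. Across the 18 genes, which share both libraries and are no replicates, Pearson's r between the libraries was 0.894 on the log2(FPKM + 1) scale and Spearman's rho was 0.920, compared with 0.944 and 0.935 over the 13116 genes.

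In terms of summed FPKM, the proteases took 0.578% of the mutant library and 0.653% of N2, or 0.514% in N2 without asp-1. Without asp-1 the asp genes summed to 3793 FPKM in the mutant library and 4390 FPKM in N2, so that the mutant sum was 86.4% of the N2 sum. The cysteine cathepsins summed to 1926 and 2887 FPKM, and their mutant sum was 66.7% of that in N2. As a share of all FPKM, the asp genes without asp-1 held 0.383% of the mutant library and 0.310% of N2. The cysteine cathepsins held 0.195% of the mutant library and 0.204% of N2.

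In these libraries the difference of a gene also went with the length of its transcript. Spearman's rho of the difference with length was 0.379 across 12458 protein-coding genes. The measured protease transcripts are of one size class, from 993 to 1564 nt with a median of 1220 nt. Among 3479 measured protein-coding genes of that length range the median difference was -0.23 and the range from the 25th to the 75th percentile was -0.64 to 0.19. Of these genes 9.57% were past 2-fold upward and 8.48% downward. After subtraction of the median of genes of like length, asp-17, asp-12, cpr-3 and asp-10 had values of 2.87, 2.70, 2.46 and 1.60, and cpr-1, asp-8 and asp-14 had values of -1.23, -1.03 and -1.72. The value of asp-4 became -0.81 and so no longer passed 2-fold. By this measure 4 of 19 members were higher, against 11.8% of all genes, and 3 members were lower (asp-14, cpr-1 and asp-8), or 4 with asp-1, against 4.27%. The class medians became -0.11 for asp genes (-0.01 without asp-1) and -0.05 for cysteine cathepsins.

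The members share a position in the genome that the rule did not use. Of the 28 genes, 22 (78.6%) lie on chromosome V, which holds 24.8% of the protein-coding genes of the table. The targeted gene flp-6 lies on the same chromosome, from 9471975 to 9473792. So do the higher members asp-17, asp-12, cpr-3 and asp-10. Of the lower members, cpr-1 and asp-8 lie on chromosome V and asp-14 and asp-4 on chromosome X. Any part of nearness to flp-6 in the differences was not tested. In the annotation 12 of the asp genes form 4 runs in which no other protein-coding gene lies between members. One run covers 8247 bp of chromosome V, from 8267511 to 8275757, and holds asp-6, asp-12, asp-5 and asp-11 in that order. Within it asp-6 and asp-5 were abundant and within 2-fold, asp-12 between them was at 46.5 FPKM in the mutant library and 7.71 FPKM in N2, and asp-11 was at 0.0525 and 0.399 FPKM. Genes a few kilobases apart thus differed in level by several orders of magnitude, and neither gene next to asp-12 passed 2-fold.

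The other run of 4 covers 15030 bp, from 19035723 to 19050752, and holds asp-17, asp-16, asp-15 and asp-1, all on the reverse strand. It contains asp-17, one of the 4 higher genes, and the gene listed at 0.0001 in the mutant library, asp-1. Between them, asp-16 was listed at 0.0001 FPKM in both libraries, and asp-15 at 0.0164 FPKM in the mutant library and 0.0001 FPKM in N2. The 2 shorter runs are asp-8 with asp-7 and asp-19 with asp-18, in which only asp-8 was measured. Copies that lie side by side can be alike in sequence, and how reads shared by such copies were assigned is not stated, so that the values of single genes in these runs are uncertain to that extent.

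**Figure D4:**
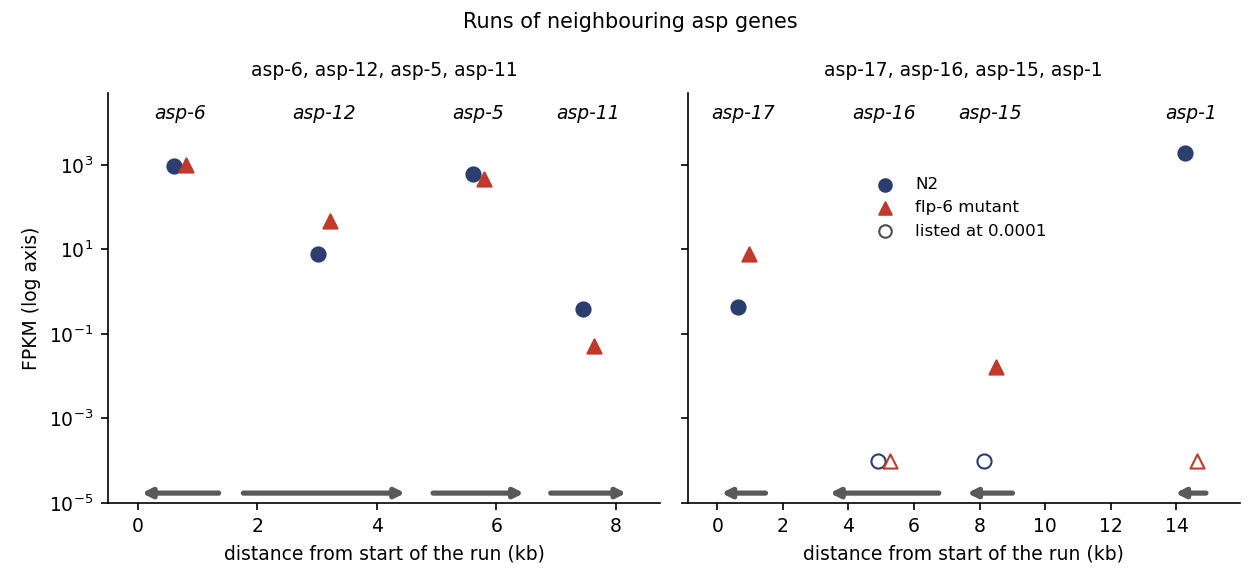
FPKM (log axis) of the asp genes in the 2 runs of 4 neighbours, against distance from the start of each run in kilobases; circles are N2, triangles the flp-6 mutant, open symbols values listed at 0.0001, and grey arrows the gene bodies with their strand. In the left run asp-12 is higher in the mutant library while asp-6 and asp-5 lie within 2-fold, and in the right run asp-17 is higher while asp-1 is at 1961 FPKM in N2 and listed at 0.0001 in the mutant library.

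The authors' deposited table of selected genes (715 genes, each past 2-fold with a p-value of at most 0.0499) held 5 of the 28 proteases: asp-17, asp-12, cpr-3, asp-10 and cpr-1. This was 17.9% of the 28 proteases, where the table held 1.55% of all 46233 genes, and 26.3% of the 19 measured ones, where it held 4.25% of all measured genes. The 5 genes made up 0.699% of that table. The p-values in the authors' deposited table were 0.0005 for asp-17, 0.00235 for asp-12, 0.0057 for cpr-3, 0.0227 for cpr-1 and 0.0424 for asp-10, from a comparison of one library with the other. The lowest q-value of a protease in the authors' deposited table was 0.293, for asp-17, and no gene of the table had a q-value under 0.05. The authors' deposited table of terms placed these 5 genes among 23 under proteolysis, with an enrichment p-value of 0.0896. Of those 23 genes 12 were higher and 11 lower in the mutant library. It also placed cpr-1 among 15 genes under determination of adult life span, with an enrichment p-value of 0.02. Of those 15 genes 10 were higher and 5 lower. Several other terms held asp-12. Among them were proteinaceous extracellular matrix (5 genes, all higher, enrichment p-value 0.0188) and ATP binding (45 genes, 39 higher and 6 lower, enrichment p-value 0.0326). These terms were computed on genes picked from these libraries, so they give no independent evidence of a direction.

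The other genes of the pathway are read against all measured genes, of which 78.2% lay within 2-fold as deposited, 10.5% were higher and 11.3% lower, and 19.7% were higher and 2.95% lower with both libraries rescaled to the same FPKM sum. The list of other lysosomal and secreted peptidases held serine carboxypeptidases of the cathepsin A and Pro-X types, legumain and the cathepsin F-like gene tag-196. Of its 11 measured members 1 passed 2-fold upward and 0 downward, and the median was 0.07, or 0.53 at the same FPKM sum, where 3 were higher and 0 lower. As deposited that member was pcp-4, at 5.82 FPKM in the mutant library and 2.32 FPKM in N2, a difference of 1.04 that was 0.71 after centring by length. The cathepsin A relative ctsa-2 (K10C2.1) had 55.6 and 33.4 FPKM, and the legumain gene lgmn-1 (T28H10.3), an endopeptidase that cuts after asparagine, had 103 and 72.5 FPKM.

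The cystatins, which inhibit cysteine cathepsins, were within 2-fold. The level of cpi-1 was 107 FPKM in the mutant library and 166 FPKM in N2, and that of cpi-2 was 297 and 411 FPKM. Both were lower in the mutant library as deposited. Their differences were -0.63 and -0.47 as deposited and -0.12 and 0.04 with both libraries rescaled to the same FPKM sum, so that the direction of cpi-2 depends on the scale.

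Lysosome genes that are not peptidases lay within 2-fold in 34 of 35 measured cases, with a median of -0.03 that turned to 0.48 at the same FPKM sum, where 3 were higher and 1 lower. The list held membrane proteins, lipid and sugar hydrolases, transporters and hlh-30, the worm relative of the lysosomal regulator TFEB. The exception was asm-3, an acid sphingomyelinase, at 0.297 FPKM in the mutant library and 2.57 FPKM in N2, a difference of -1.46. The next in size were gba-4, a glucocerebrosidase relative, at 42.4 and 77.3 FPKM, and ncr-2, a relative of the cholesterol transporter NPC1, at 1.59 and 0.513 FPKM. The hlh-30 gene had 15.5 FPKM in the mutant library and 14.5 FPKM in N2.

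Necrotic death of worm neurons passes from calcium release through calpains to asp-3 and asp-4. A list of calpains, serpins and calcium genes was read beside them, and not every gene of it is known to act in this death. Of its 15 measured members 13 lay within 2-fold, with a median of 0.22, or 0.57 at the same FPKM sum, where 3 were higher and 0 lower. The calpain clp-6 was higher, at 4.59 FPKM in the mutant library and 1.24 FPKM in N2, and the serpin srp-2 lower, at 7.02 and 18.5 FPKM. The third largest difference was that of the calpain clp-8 (F44F1.3), at 2.78 and 1.16 FPKM. The calpains tra-3 and clp-1, which act in necrotic death of neurons, were at 11.1 and 53.9 FPKM in the mutant library and 14.2 and 43.6 FPKM in N2. The serpin srp-6 was at 20.5 FPKM in the mutant library and 24.9 FPKM in N2.

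Since many of the proteases are intestinal, markers of the tissues of the larva were set beside them. All 9 intestine markers were measured and lay within 2-fold, from -0.56 for the esterase ges-1 to 0.84 for the peptide transporter pept-1, with a median of 0.21 as deposited and 0.00 after centring by length. At the same FPKM sum their median was 0.69 and 3 of them passed 2-fold upward. Their summed level was 1777 FPKM in the mutant library and 1424 FPKM in N2. The intestinal GATA factor elt-2 was at 7.98 and 6.79 FPKM. The marker lists of the hypodermis (4 measured), pharynx (4), neurons (5) and excretory cell and coelomocytes (3) had no member past 2-fold as deposited. At the same FPKM sum 2 hypodermis markers and 1 pharynx marker passed it upward. All 4 pharynx markers had differences above 0, with a median of 0.75 that became 0.02 after centring by length, and all 5 neuron markers had differences below 0, with a median of -0.29 that became 0.06, or 0.20 at the same FPKM sum. After centring 1 neuron marker passed 2-fold downward.

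Of 4 muscle markers 3 were past 2-fold upward (myo-3, unc-54 and unc-15), with a median of 1.40 that became 0.75 after centring by length, where none of the 3 passed 2-fold (myo-3 was at 0.83, unc-54 at 0.80 and unc-15 at 0.69). The summed level of all 4 muscle markers, unc-27 included, was 1920 FPKM in the mutant library and 1238 FPKM in N2. Among 5 measured germ line and sperm markers msp-19 was higher, at 37.2 and 9.16 FPKM, and the other 4 lay within 2-fold as deposited. At the same FPKM sum 2 of the 5 were higher, msp-19 and cgh-1, and 0 lower, with a median of 0.78. At that scale the same 3 muscle markers were higher, with a median of 1.91 for the muscle list. The part of these tissues in the protease differences was not tested.

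**Figure D5:**
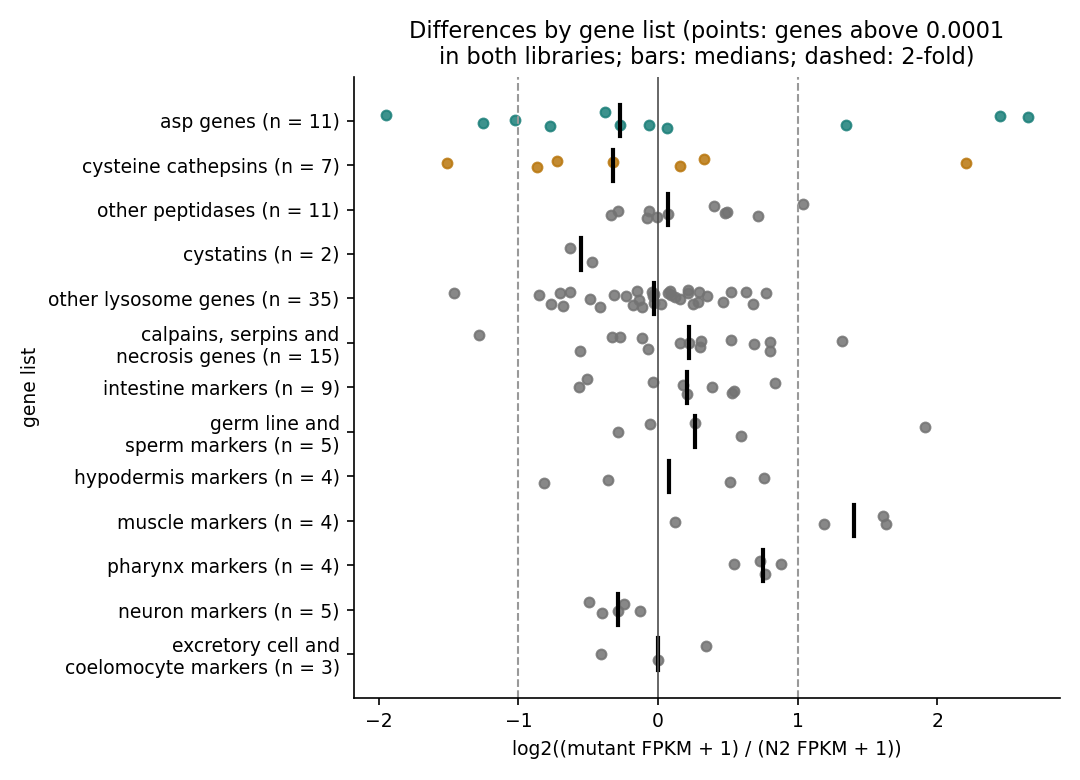
Log2 difference of the mutant library from N2 for genes above 0.0001 FPKM in both libraries, by gene list; each point is a gene, black bars are medians and dashed lines mark 2-fold. Points of the asp genes and cysteine cathepsins spread from -1.95 to 2.65, while those of the other lysosome genes lie within 2-fold in 34 of 35 cases.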

How the data were processed

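Whole L4 larvae of N2 and of the flp-6 mutant strain were sequenced as 1 library each. Per the submitters' processing notes, TopHat, Cufflinks and the build WBcel235 were used, without versions or settings. The deposited FPKM values, 1 column per library, were normalized by the authors for transcript length and library size, and 0.0001 stands in place of 0. The log2 ratio and the linear ratio deposited by the authors have no pseudocount and were not used. The p-value and q-value per gene, and the count of genes, percent and enrichment p-value per term, are quoted from the authors' deposited tables.

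Differences were computed with a pseudocount of 1 FPKM for genes averaging at least 1 FPKM over both libraries, and 2-fold was counted. This scale understates differences of low genes. With 1 library per genotype no p-value was computed. Positions and longest transcripts came from Ensembl release 115 of WBcel235, which held all 28 members. For length centring, 12999 genes above 0.0001 in both libraries were put in 40 bins of transcript length, and the bin's median was subtracted. The calculation was tested on simulated data. Alternatives were other pseudocounts, filters, scalings, a 4-fold threshold, length centring, omission of genes at 0.0001 and, added after the data had been seen, omission of asp-1. All measured members are named. Of the other lists, up to 3 genes with the largest differences were named, and further ones after their values were seen. Members and lists were chosen with earlier results of these data known. No sequence is shown. Python 3.11.15, numpy 2.4.6, pandas 2.3.3 and matplotlib 3.10.9 were used.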

Additional observations from a re-analysis of the deposited data

How the results depend on the processing

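The count of 4 higher members ranged from 3 to 4 over the alternatives. That of 5 lower members was 4 or 5, except with both libraries rescaled to the same FPKM sum, where it was 2, and at 4-fold, where it was 1 (asp-1). For all members, asp genes and cysteine cathepsins in turn, the median as reported was -0.32, -0.32 and -0.32. It was -0.054, -0.062 and 0 without a filter on low values, 0.19, 0.19 and 0.19 at the same FPKM sum, and -0.10, -0.10 and -0.10 at the same upper quartile. It was -0.14, -0.14 and -0.14 with the median difference set to 0, and -0.049, -0.11 and -0.049 centred by transcript length. The sign of asp-13 turned at the same sum (0.45), the same upper quartile (0.16), the median set to 0 (0.12) and length centring (0.16). At the same sum asp-2 (0.25), asp-5 (0.14) and cpr-4 (0.19) turned as well, and cpr-1 was at -0.999, just inside 2-fold. For asp-4, 2-fold was lost under all 3 scalings and length centring, and for asp-8 at the same sum and a pseudocount of 5. Every scaling shifts all genes by construction. Under all alternatives that included them, asp-17, asp-12, cpr-3, asp-10 and asp-14 stayed past 2-fold. At a mean of at least 5 FPKM, asp-17 and asp-8 had no value. No paired analysis was possible because each genotype has 1 library. The number of reads obtained is unknown, so that no counting error can be given for low members.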

Other observations

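Because asp-10 is now named hrg-7, the other genes with hrg names, most of which were found by their response to haem supply, were looked up after the protease values had been seen. The haem importer hrg-4 of the intestine was at 30.7 FPKM in the mutant library and 19.5 FPKM in N2, and hrg-3, which encodes a small secreted haem carrier of the intestine, at 9.48 and 3.08 FPKM. The lysosomal haem transporter hrg-1 was at 45.4 and 52.0 FPKM. Of the others hrg-2 was at 6.12 and 9.28 FPKM, hrg-6 at 5.74 and 13.3 FPKM, hrg-9 (R186.1) at 3.50 and 2.42 FPKM and hrg-10 (Y80D3A.9) at 22.8 and 29.9 FPKM, while hrg-5 was under 1 FPKM in both. Past 2-fold were hrg-3, at 1.36, and hrg-6, at -1.08 on the log2 scale, against 10.5% of all genes higher and 11.3% lower. After centring by length hrg-3 was at 1.90 and hrg-4 at 1.23, and hrg-6, at -0.49, no longer passed 2-fold; by that measure 11.8% of all genes were higher and 4.27% lower.

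The transcription factor gene zip-10, which activates asp-17 after cold and warming, was also looked up after the values had been seen. It was at 12.2 FPKM in the mutant library and 5.85 FPKM in N2, a difference of 0.94, or 1.55 after centring by length. Of all genes 10.5% were past 2-fold upward as deposited and 11.8% after centring. The p-value of zip-10 in the authors' deposited table was 0.793, from a comparison of one library with the other. Any part of zip-10 in the difference of asp-17 was not tested.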
